A study of Mus musculus with 6 samples.

Results

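GABAergic interneurons are the local inhibitory nerve cells of the forebrain, and 10 genes that mark them were followed across every array of the series: Gad1, Gad2, Pvalb, Sst, Vip, Calb2, Npy, Cck, Reln and Lhx6. They were chosen by name, as 10 of the 27578 named genes on the array, and every non-control probe that carries one of these names was taken, 13 probes of 39429. Brain RNA of male C57BL/6N mice was measured on 6 arrays, with 3 wild-type samples and 3 Pla2g2e-/- samples, which lack a secreted phospholipase A2. The titles call all 6 sham-operated, but the treatment text of each sets out a temporary blockage of the middle cerebral artery (MCAO), and nothing in the labels decides between them. Neither a brain region nor whether each sample is a different animal is stated, so the p-values here reflect the spread of these samples alone, which could be technical.

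Interneurons release GABA, the main inhibitory transmitter of the brain, which the enzymes encoded by Gad1 and Gad2 make from glutamate. The cells fall into classes recognised by calcium-binding proteins (Pvalb, Calb2), by neuropeptides (Sst, Vip, Npy, Cck) or by the secreted protein reelin (Reln), and Lhx6 encodes a LIM homeodomain transcription factor of the Pvalb and Sst classes. None of these genes is limited to cortical interneurons. Gad1 and Gad2 are also used by striatal projection neurons, Cck by pyramidal cells, and Calb2 by cells of the thalamus and olfactory bulb. In bulk tissue, fewer cells of a type and less RNA per cell cannot be told apart.

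Each value below is the log2 of the processed signal minus the 75th percentile of that array's probes, and differences are knockout minus wild type. All 13 probes were well above background on all 6 arrays and were tested. No member differed between the genotypes beyond the spread of the arrays. By limma with Benjamini-Hochberg adjustment over 31940 probes, 0 of the 13 passed a threshold of 0.05, against 0% of all probes. At an unadjusted p under 0.05 there were also 0 of 13, where the share over all probes was 12.1%, and in 0 of 13 were the groups without overlap, against 19.3% of all probes. With 1 probe per gene, 7 members were higher in knockout and 3 lower, against 46.9% and 53.1% of all genes, and their median difference was 0.05, against a median of -0.01 over 22565 genes. With the slide as a block, or within the slide that has arrays of both genotypes, the members' median was -0.02. The median size of the members' differences was 0.0796, and that of all genes was 0.107.

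Slide 1 held all wild-type arrays together with knockout 1, and slide 2 the remaining knockout arrays. Between 82.0% and 85.3% of spots were well above background, and 0 were saturated. The 2 probes of Pla2g2e were dim, with values from -9.15 to -6.67, and differed in sign (0.33 and -0.59, adjusted p = 0.494 and 0.437 by limma). Which stretch of Pla2g2e was removed is not stated, so neither probe checks the genotype labels. Within the wild-type group, marker lists did not single out 1 array. Wild-type 3 was high in striatal markers: the median of 17 striatal projection neuron markers, relative to the wild-type mean, was 0.92 there. It was -0.26 on wild-type 1 and -0.65 on wild-type 2, and the knockout arrays ranged from -0.75 to -0.59. Wild-type 3 was also high in meninges markers (0.43, against -0.06 and -0.33 on wild-type 1 and 2). The same array was low in activity-driven immediate early genes (-0.36, against 0.01 and 0.37) and in neocortex projection neuron markers (-0.12, against 0.12 and -0.05). Wild-type 2 was the low one in markers of choroid plexus (-0.99, against 0.56 and 0.42 on wild-type 1 and 3), blood (-0.999, against 0.57 and 0.51), cerebellum (-0.42, against 0.12 and 0.30), hypothalamus (-0.28, against 0.07 and -0.03) and hippocampus (-0.27, against -0.02 and 0.05). Of the 10 pan-neuronal markers 10 were measured, with array medians between -0.03 and 0.11, and Syt1, Snap25, Eno2 and Rbfox3, the brightest, differed by -0.00, -0.00, 0.04 and 0.06. The neurofilament genes Nefl (0.23) and Nefm (0.29), named after their values were seen, were higher in knockout without overlap. These were 2 of the 10, against 7.60% of all genes, and the smallest adjusted p of the list was 0.331 by limma.

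The sequences shown here are of 2 kinds. They are probes that measured the members, and promoter stretches that hold a cyclic AMP response element or its shorter core. Pvalb was read by 2 probes and Lhx6 by 3. The first 30 bases of each are shown, since these are the genes in which separate probes can be compared (all 60-base oligos, from the array files, 5′ to 3′).
Pvalb, transcript position 510: agtttgtttgtgttattttttactccccca
Pvalb, transcript position 912: ctccaatgacactctatcaattgcttttga
Lhx6, transcript position 3115: aatgtacaggtcatcgaggctatttattta
Lhx6, transcript position 3289: tcttatttgtgtaataaataaagttaatgc
Lhx6, transcript position 569: ggcagcagaatagctgctacatcaagaaca
The Pvalb probes lie on chromosome 15 of mm9, at 78021951 to 78022010 and 78021549 to 78021608. Those of Lhx6 lie on chromosome 2, at 35937644 to 35937703, 35937473 to 35937529 and 35958379 to 35958438, in the order shown. Exons are not named, since no annotation of that build was used here. The Npy probe spans 3763 bases of chromosome 6 (49773743 to 49777505) with 60 bases of sequence, so it crosses an intron.

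The peptide genes Sst, Vip and Cck are textbook targets of cyclic AMP signalling through CREB, which binds the element TGACGTCA. RefSeq promoter windows (GRCm38.p6, 250 bases before to 50 after a start) were matched for 9 of the 10 members, all but Calb2. The full element was found in 1 of the 9, Sst, and in 2.03% of all 27025 genes. The shorter core TGACG, searched on both strands and contained in the full element, was found in 4 of the 9 (Gad2, Sst, Vip and Cck), against 23% of all genes. The 100 bases before the start of these 4 are shown with the match in capitals, read along the gene's own strand.
Sst, chr16:23890845-23890944, minus strand: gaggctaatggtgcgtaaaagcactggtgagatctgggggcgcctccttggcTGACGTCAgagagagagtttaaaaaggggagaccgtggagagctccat
Vip, chr10:5639118-5639217, plus strand: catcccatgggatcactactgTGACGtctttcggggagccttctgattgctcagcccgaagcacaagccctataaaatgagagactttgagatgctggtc
Cck, chr9:121495695-121495794, minus strand: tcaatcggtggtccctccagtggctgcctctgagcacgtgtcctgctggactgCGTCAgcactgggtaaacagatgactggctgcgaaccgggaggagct
Gad2, chr2:22622227-22622326, plus strand: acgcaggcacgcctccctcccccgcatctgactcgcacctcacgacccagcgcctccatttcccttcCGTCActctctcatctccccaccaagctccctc
The Sst element lies at bases -48 to -41, the Vip core at -79 to -75, the Cck core at -47 to -43 and the Gad2 core at -33 to -29. The homeodomain core TAATTA was in 0 of the 9 members and in 6.12% of all genes, and the letters TATAAA in 3 (Gad1, Vip and Lhx6) and in 15.7% of all genes, both on either strand. A match describes these letters in this window and is not a measured site.

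**Figure D1:**
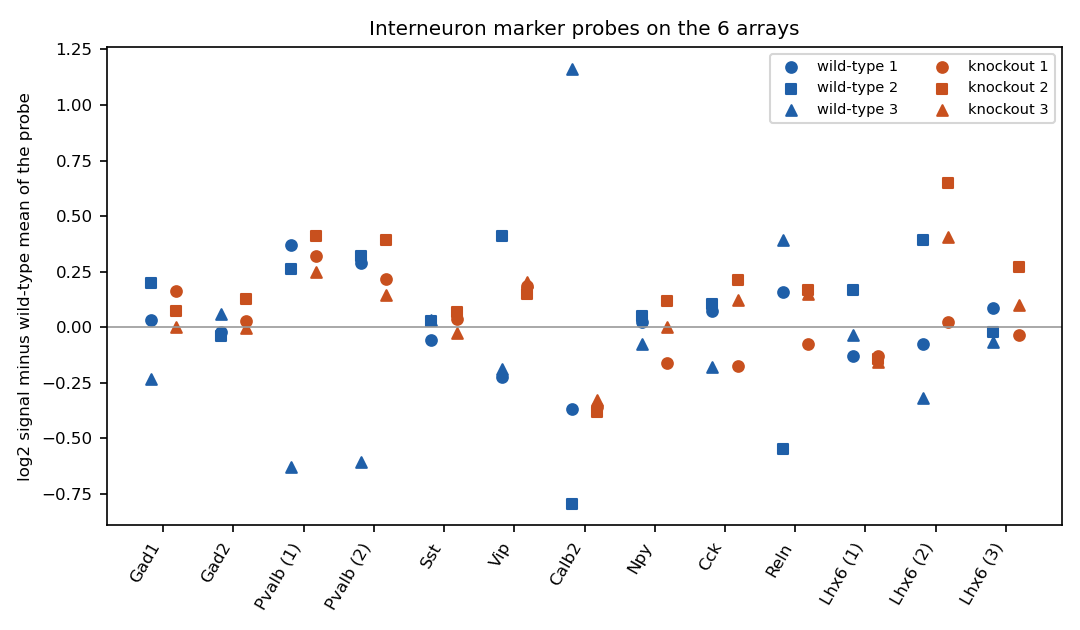
Each point is 1 array (circle, square and triangle for replicates 1, 2 and 3, blue for wild type and orange for knockout), and the vertical axis is the log2 signal minus the probe's wild-type mean. Pvalb (1) and (2) are the probes at transcript positions 912 and 510, and Lhx6 (1), (2) and (3) those at 3115, 569 and 3289. Wild-type 3 is lowest on both Pvalb probes and highest for Calb2, while the 6 values of Gad2 and Sst stay close together.

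The enzymes that make GABA were measured at steady levels. Gad2, which encodes the glutamate decarboxylase enriched at synaptic terminals, read 2.20, 2.18 and 2.28 for wild-type replicates 1, 2 and 3, and 2.25, 2.35 and 2.22 for the knockout replicates in the same order. The groups overlapped, with means of 2.22 ± 0.05 and 2.27 ± 0.07 (SD, n = 3 each). Their difference was 0.05 ± 0.07 (SE, adjusted p = 0.783 by limma). The 95% interval of that difference ran from -0.12 to 0.22, or from 0.921-fold to 1.17-fold. Gad1, which encodes the form that supplies most GABA in cell bodies, read 3.25, 3.41 and 2.98 in wild type and 3.38, 3.29 and 3.21 in knockout. Wild-type 3 was the lowest of the 6 and the knockout values lay inside the wild-type range. The difference was 0.08 ± 0.12 (SE, adjusted p = 0.815), with an interval from -0.22 to 0.38, and it was -0.04 without wild-type 3. The Gad1 probe is at 70439699 to 70439758 and the Gad2 probe at 22549095 to 22549154 of chromosome 2.

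Other genes of GABA handling were also measured. Slc32a1, the transporter that loads GABA into vesicles, read 4.92, 4.79 and 4.81 in wild type and 4.76, 5.02 and 4.87 in knockout, a difference of 0.05 ± 0.09 (SE). Of the 10 genes for GABA synthesis, transport and breakdown, 6 were higher and 4 lower, 0 passed the adjusted threshold and 0 had an unadjusted p under 0.05, where the shares over all genes were 2.94% higher and 9.30% lower. The list's median was 0.03, and its 1 gene whose groups did not overlap was Slc6a13, a GABA transporter also found in the meninges (-0.39, adjusted p = 0.472 by limma, and -0.17 without wild-type 3), against 12.2% of all genes lower without overlap. Among its brightest members Glul, glutamine synthetase of astrocytes, differed by 0.10 (with knockout 3 left out, whose spot was marked as an outlier) and Abat, the enzyme that breaks GABA down, by -0.05.

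**Figure D2:**
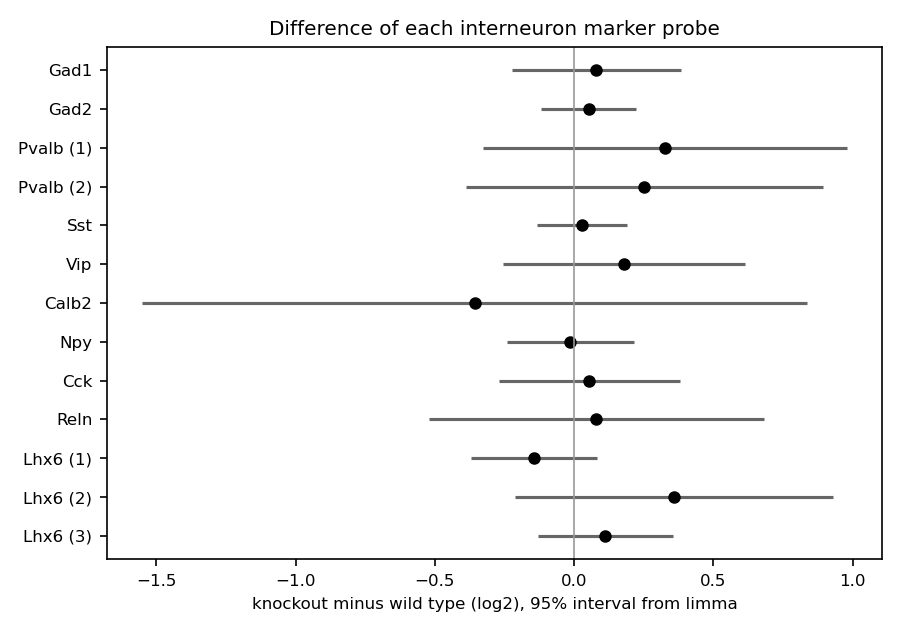
Points are the knockout minus wild-type difference (log2) of each of the 13 probes and lines are 95% intervals from limma. All 13 intervals cross 0. They are narrow for Sst (-0.13 to 0.19) and Gad2 (-0.12 to 0.22) and wide for Calb2 (-1.55 to 0.84).

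The calcium-binding proteins showed the largest differences among the 10 genes, and both depended on wild-type 3. Pvalb encodes parvalbumin, the calcium buffer of fast-spiking basket and chandelier cells. Its brighter probe (position 510) read 3.86, 3.89 and 2.96 in wild type and 3.79, 3.96 and 3.72 in knockout. Wild-type 3 lay far under the other 5 arrays, which spanned 3.72 to 3.96. Means were 3.57 ± 0.53 and 3.82 ± 0.13 (SD, n = 3 each), and they differed by 0.25 ± 0.26 (SE, adjusted p = 0.714 by limma). The second Pvalb probe (position 912) read 2.28, 2.17 and 1.28 in wild type and 2.23, 2.32 and 2.16 in knockout, and differed by 0.33 ± 0.27 (SE, adjusted p = 0.643). The array-to-array pattern of both probes matched closely, since the gap between them varied with an SD of only 0.0683 over the 6 arrays. Without wild-type 3 the differences of the 2 probes were -0.05 and 0.01.

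Calb2 encodes calretinin, the calcium buffer of many Vip cells, and moved the other way on the same array. It read -4.41, -4.83 and -2.88 in wild type and -4.40, -4.42 and -4.36 in knockout. Wild-type 3 was the highest, at a processed signal of 269.8 units against 67.1 to 107.4 on the other 5 arrays. The 3 knockout arrays lay within 0.0575 of each other, whereas the wild-type arrays spanned 1.96. The difference was -0.36 ± 0.49 (SE, adjusted p = 0.786 by limma), and it turned to 0.23 without wild-type 3. Calb2 was read by 1 probe (chromosome 8, 112678555 to 112678614), so its pattern has no second reading. Its signal was dim, and the difference was -0.32 after normexp background correction.

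The low Pvalb and high Calb2 of wild-type 3 coincided there with the high striatal and meninges markers given above. They also coincided with the low immediate early genes and neocortex markers. Of the 33 other subtype genes measured, 13 were lowest on that array (39.4%, against 24.8% of all genes) and 10 highest (30.3%, against 27.6%). Among the low ones was Syt2, a synaptotagmin of fast-spiking terminals, which read -3.23 against -2.31 to -2.14 elsewhere. Cplx1, a complexin of inhibitory terminals, read 4.47 against 5.01 to 5.14 on 4 other arrays. Gad1, Lamp5 and the transcription factor gene Satb1 (2.42 against 3.01 to 3.15 elsewhere) had their lowest value there as well. Among the high ones were Tac1 and Pthlh, a peptide hormone gene of some parvalbumin cells (-1.46, against -2.25 to -1.77 elsewhere). Hapln1, a link protein of perineuronal nets, was highest by a small margin (-0.42, against -0.55 to -0.43 elsewhere). These genes were chosen after their values were seen. Sst, Npy and Gad2 spanned only 0.09, 0.12 and 0.10 over the 3 wild-type arrays. The part of those marker lists in these values was not tested.

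Of the neuropeptide members, Sst varied least between arrays. Sst encodes somatostatin, made by dendrite-targeting interneurons, and its probe was printed 10 times on each array. It read 4.03, 4.11 and 4.12 in wild type and 4.12, 4.16 and 4.06 in knockout, so all 6 values lay between 4.03 and 4.16. The coefficient of variation between the 10 spots of an array was 2.90% to 4.81%. The difference was 0.03 ± 0.07 (SE, adjusted p = 0.886 by limma), with an interval from 0.911-fold to 1.14-fold. The probe is at 23889776 to 23889835 of chromosome 16, and the full CREB element stands in the promoter shown above. Npy, which encodes neuropeptide Y of neurogliaform and Sst cells, read 2.76, 2.78 and 2.66 in wild type and 2.57, 2.85 and 2.74 in knockout. The knockout arrays held both the lowest and the highest of its 6 values, and the difference was -0.01 ± 0.09 (SE, adjusted p = 0.966).

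Cck and Vip mark interneurons that express cannabinoid receptors or that inhibit other interneurons. Cck, the cholecystokinin precursor, read 6.79, 6.83 and 6.54 in wild type and 6.55, 6.93 and 6.84 in knockout. Wild-type 3 and knockout 1 were its low arrays, 1 in each group, and the difference was 0.05 ± 0.13 (SE, adjusted p = 0.889). Within slide 1 it was -0.17, and without wild-type 3 it was -0.03. Vip, vasoactive intestinal peptide, read 0.18, 0.81 and 0.21 in wild type and 0.58, 0.55 and 0.60 in knockout. Here the 3 knockout arrays lay between wild-type 2, which was high, and the lower wild-type arrays. The difference was 0.18 ± 0.18 (SE, adjusted p = 0.703). Without wild-type 2 it was 0.38, with an unadjusted p of 0.00238 and an adjusted p of 0.141 by limma, and over all 18 alternatives it ranged from 0.07 to 0.38 with adjusted p from 0.141 to 0.9996. The probes of Cck and Vip lie at 121398943 to 121399002 of chromosome 9 and 4699238 to 4699297 of chromosome 10.

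Reln encodes reelin, the secreted glycoprotein that guides neuronal layering and is kept by layer 1 and other interneurons in the adult. It read -4.66, -5.37 and -4.43 in wild type and -4.89, -4.65 and -4.67 in knockout (chromosome 5, 21404915 to 21404974). Wild-type 2 was low, at 46.4 units of processed signal against 71.8 to 92.2 elsewhere, and the groups overlapped. The difference was 0.08 ± 0.25 (SE, adjusted p = 0.912 by limma). It was -0.19 without wild-type 2, 0.28 without wild-type 3 and -0.08 within slide 1.

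The probes of Lhx6 differed in sign in the fit of all arrays. The brightest (position 3115) read 2.69, 2.99 and 2.79 in wild type and 2.69, 2.68 and 2.67 in knockout, a difference of -0.14 ± 0.09 (SE, adjusted p = 0.558 by limma). The knockout values were nearly equal, and knockout 2 and 3 lay under all wild-type values. Knockout 1 (2.6937) was level with wild-type 1 (2.6936), the lowest of its group, and only by this margin did the groups overlap. The probe at position 3289, close to it on the transcript, read -0.91, -1.02 and -1.06 in wild type and -1.03, -0.72 and -0.90 in knockout, a difference of 0.11 ± 0.10. The probe at position 569 differed by 0.36 ± 0.23, at processed signals of 4.6 to 8.8 units, and by -0.03 after normexp correction. Within slide 1, and with the slide as a block, the 3 differences were -0.13, -0.03 and 0.02 in this order. None of the 3 passed, and the mean of the probes differed by 0.11. The gap between the 2 neighbouring probes varied with an SD of 0.216 over the arrays.

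Arrays of the wild-type group spread more than those of the knockout group. The SD was larger in wild type for 9 of 13 member probes, against 63.8% of 31623 probes with all 6 values. The median SD of the member probes was 0.219 in wild type and 0.0817 in knockout, and over all probes 0.138 and 0.0965. The wild-type array farthest from the others was wild-type 3 for 7 member probes, wild-type 2 for 4 and wild-type 1 for 2, against 41.0%, 34.2% and 24.8% of all probes.

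**Figure D3:**
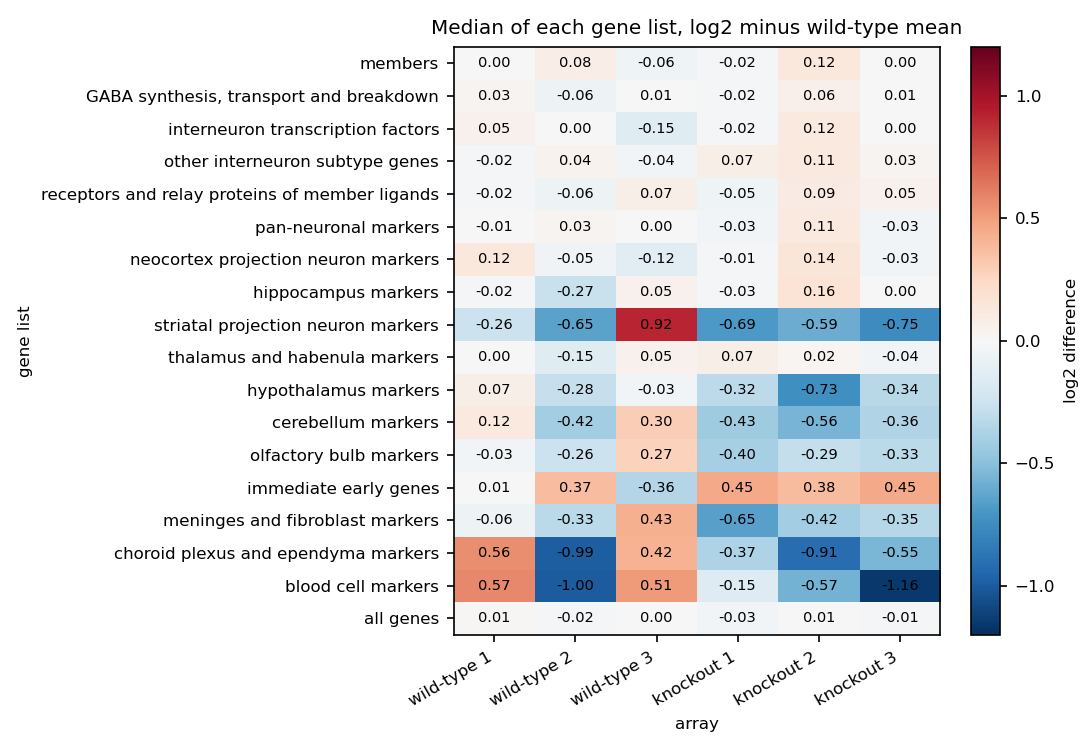
Each cell is the median over a gene list of the log2 signal minus the wild-type mean, with arrays in columns and lists in rows. The rows of members and of the other interneuron lists stay between -0.15 and 0.12, while striatal markers reach 0.92 on wild-type 3 and choroid plexus and blood markers range from -1.16 to 0.57.

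Beyond the members, 33 of 34 listed genes of interneuron subtypes were measured. In 22 the knockout mean was higher and in 11 lower, with a median of 0.07, and 0 passed limma's adjusted threshold. Groups did not overlap in 6 higher genes and 1 lower gene, where the shares over all genes were 7.60% and 12.2%. At an unadjusted p under 0.05 there were 3 higher and 1 lower, against 2.94% and 9.30% of all genes. The 3, named after their values were seen, were Crh, corticotropin-releasing hormone (0.27 ± 0.07, SE, adjusted p = 0.306), Htr3a, the ionotropic serotonin receptor subunit of Vip and neurogliaform cells (0.33 ± 0.10, adjusted p = 0.345), and Cxcl14, a chemokine (0.18 ± 0.07, adjusted p = 0.411). Crh read 0.55, 0.63 and 0.59 in wild type and 0.77, 0.96 and 0.85 in knockout. Htr3a read -2.63, -2.48 and -2.79 in wild type and -2.33, -2.39 and -2.20 in knockout. The lower one was Sncg, gamma-synuclein (-0.31 ± 0.12, adjusted p = 0.390). The largest difference was in Lamp5, a marker of neurogliaform cells, at 0.44 ± 0.21 (SE, adjusted p = 0.451), with wild-type 3 at 1.19 and the other wild-type arrays at 1.96 and 1.88 against 2.07, 2.15 and 2.12 in knockout, and it was 0.20 without wild-type 3. Cplx1, Cnr1 and Id2, bright members of the list, differed by 0.28 (without knockout 3, whose spot was left out), 0.14 and 0.04, and without wild-type 3 by 0.10, 0.12 and -0.01.

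The count of subtype genes without overlap was larger without wild-type 3. Leaving out any array can only keep or raise such a count for the same genes, so the rise does not single out that array. Without wild-type 3, an alternative added after the data were seen, 13 of 33 were higher without overlap (39.4%, against 11.7% of all genes). Lower without overlap were 3 (9.09%, against 17.1%). At an unadjusted p under 0.05 there were then 7 higher (21.2%, against 2.69% of all genes) and 2 lower (6.06%, against 7.75%). None passed the adjusted threshold. Immediate early genes, which neurons transcribe on activity, were also higher in knockout in these samples, in 18 of 20 genes with a median of 0.46, and in 18 of 20 with a median of 0.27 without wild-type 3. Relative to the wild-type mean, their array medians were 0.01, 0.37 and -0.36 in wild type and 0.45, 0.38 and 0.45 in knockout. Wild-type 2 was thus close to knockout 2. Arc, Egr1, Nr4a1 and Per1, the brightest, differed by 0.39, 0.36, 0.72 and 0.23, and without wild-type 3 by 0.09, 0.09, 0.48 and 0.05. Their part in the counts of interneuron genes was not tested. Among the 10 members 1, Gad2, was higher without overlap once wild-type 3 was left out, and 0 had an unadjusted p under 0.05.

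**Figure D4:**
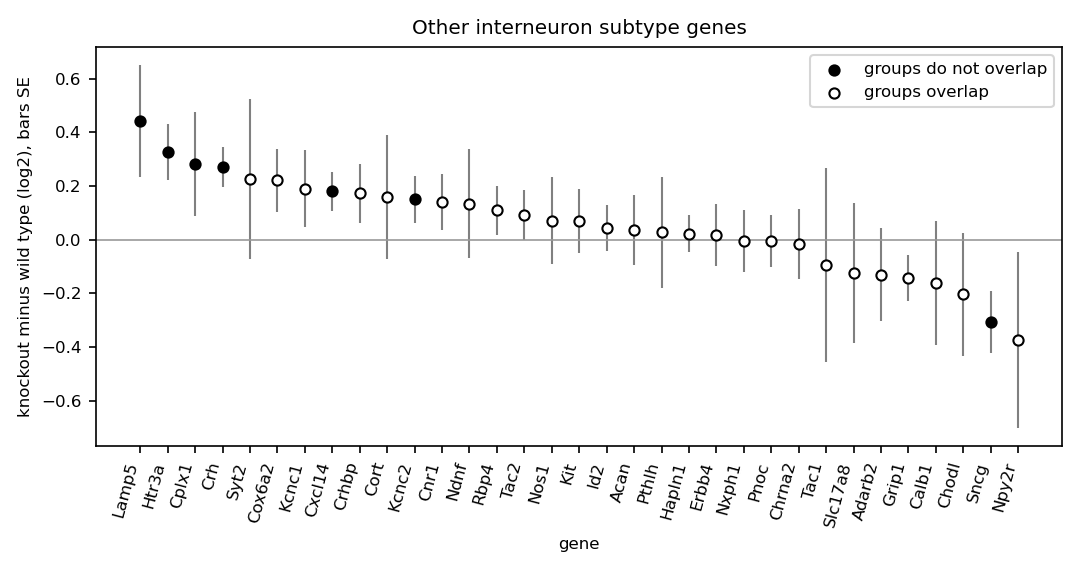
Points are the knockout minus wild-type difference (log2) of the 33 measured interneuron subtype genes, ordered by size, with SE bars, and filled points mark the 7 genes whose groups do not overlap. Lamp5 is highest at 0.44 and Npy2r lowest at -0.37, and 0 of the 33 passed the adjusted threshold.

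Of 17 measured transcription factors of interneuron development and identity, 8 were higher and 9 lower with a median of -0.01, and without wild-type 3 there were 5 higher and 12 lower with a median of -0.04. In the fit of all arrays 0 passed the adjusted threshold. Etv1 and Satb1, the brightest, differed by 0.48 ± 0.20 and 0.19 ± 0.20 (SE), and Zeb2 by -0.01 ± 0.09. Without wild-type 3 they differed by 0.31, -0.03 and -0.08. At an unadjusted p under 0.05 there was 1 of 17, where the share lower over all genes was 9.30%: Sp9 (-0.43 ± 0.13, adjusted p = 0.331 by limma), named after its value was seen. It read -4.27, -4.38 and -4.07 in wild type and -4.45, -4.78 and -4.79 in knockout. Its processed signal was dim, at 71.1 to 118 units, and its lowest values were those of knockout 2 and 3, on slide 2.

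Of 16 genes for receptors and relay proteins of the members' ligands, 15 were measured. Of these, 10 were higher and 5 lower, with a median of 0.06. Without wild-type 3 there were 8 higher and 7 lower, with a median of 0.00. None passed the adjusted threshold, and at an unadjusted p under 0.05 there were 1 higher and 1 lower of 15, against 2.94% and 9.30% of all genes, both named after their values were seen. Npy1r, a receptor of neuropeptide Y, read 1.26, 1.32 and 1.15 in wild type and 1.42, 1.52 and 1.64 in knockout, a difference of 0.28 ± 0.09 (SE, adjusted p = 0.332 by limma). Vipr2, a receptor of vasoactive intestinal peptide, was dim and read -4.30, -4.82 and -4.27 in wild type and -4.82, -5.42 and -4.98 in knockout, a difference of -0.61 ± 0.21 (adjusted p = 0.371). Its unadjusted p was no longer under 0.05 without wild-type 3. Vipr1, Cckbr, Sstr3 and Vldlr, the brightest, differed by 0.12, 0.29, 0.10 and -0.09, and without wild-type 3 by 0.02, 0.19, 0.18 and -0.06. Dab1, the adaptor that relays the reelin signal, was also named after its value was seen. It differed by 0.16 ± 0.08 (SE, adjusted p = 0.495 by limma) without overlap of the groups. Of the 15 genes, 2 were higher and 1 lower without overlap, against 7.60% and 12.2% of all genes.

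Markers of other sources of these transcripts were compared in the same way. Projection neuron markers of the neocortex had a median of 0.09 (7 of 12 higher), and Tbr1, Neurod2, Slc17a7 and Cux2, its brightest, differed by -0.00, 0.03, -0.07 and 0.14. All 17 striatal projection neuron markers were lower in knockout, with a median of -0.73, and Pde1b, Penk, Rasd2 and Scn4b differed by -0.25, -0.47, -0.09 and -0.13, and without wild-type 3 by 0.01, 0.10, 0.10 and -0.07. Without wild-type 3 the striatal median was -0.32, with 11 of 17 lower. Olfactory bulb and thalamus markers, lists that share Calb2, had medians of -0.31 (9 of 9 lower) and -0.03 (7 of 12 lower), and without wild-type 3 of -0.04 (7 of 9 lower) and -0.03 (7 of 12 lower). Pcbp3, Th, Trh and Sp8, the brightest of the first, differed by -0.02, -0.31, -0.81 and -0.02, and Ramp3, Tac2, Rora and Rgs16, of the second, by 0.08, 0.09, 0.13 and -0.04. Hypothalamus markers had a median of -0.66 (9 of 12 lower) and cerebellum markers of -0.35 (9 of 11 lower, 4 of them without overlap), and without wild-type 3 the medians were -0.20 and -0.21. Markers of the meninges (11 of 11), choroid plexus (11 of 11) and blood (9 of 9) were lower too, with medians of -0.49, -0.61 and -0.74, and of -0.34, -0.43 and -0.43 without wild-type 3. Lower without overlap were 5 of 17 striatal, 2 of 12 hypothalamus, 4 of 11 cerebellum and 6 of 11 meninges markers. The neocortex and olfactory bulb lists had 1 each, and the thalamus, choroid plexus and blood lists 0. The share over all genes was 12.2%. Higher without overlap was 1 gene each of the thalamus and hypothalamus lists, against 7.60% of all genes. The part of these lists in the members' values was not tested. None of these lists held a gene past the adjusted threshold.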

How the data were processed

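The 6 samples were labelled with Cy3 and measured on 1-colour Agilent arrays, per the labels' protocols. The deposited intensity values were extracted with Agilent Feature Extraction 12.1.1.1 on a grid built on mm9, background-subtracted and detrended within each array, per the file headers. Non-uniform and population outlier spots were left out, as were 1377 control spots. The outlier spots numbered 68 to 98 per array on slide 1, and 314 and 530 on knockout 2 and 3 of slide 2. Spots of a probe were averaged on the log2 scale and the 75th percentile over probes was subtracted. A probe was tested when well above background on all arrays of at least 1 group with 2 values per group (31940 of 39429). Knockout and wild type were compared with limma 3.58.1 in R 4.3.3 (lmFit and eBayes, two-sided, no covariate), with Benjamini-Hochberg adjustment over all tested probes. The probe with the highest mean stood for a gene in lists. An exact permutation test of 3 against 3 cannot go below 0.1 and was not used. The fit was tested on simulated data, at log2 differences of 1 and 2. It recovered 54 of 100 changed probes at 1 and 84 of 100 at 2, with 6 false calls. The members' differences were smaller than the simulated ones. The number of arrays limits the precision.

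Symbols were updated through RefSeq accessions for 29510 probes. The members and lists were chosen with earlier results of these data known. Named genes are all members, the 4 brightest genes of each list described, and Slc32a1, and further names are marked in the text. Some results under this rule are not reported here. Replicate numbers were not used as pairs.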

Additional observations from a re-analysis of the deposited data

How the results depend on the processing

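Over 18 alternatives the 10 members gave 180 differences, of which 163 kept their direction, 17 changed it and 0 reached an adjusted p under 0.05. Many of the 180 could not change. Other filters on dim probes, the gene-level fit and the replicate block keep the members' main differences by design. So does the mean of a gene's probes for members other than Pvalb and Lhx6. The 2 slide settings, fixed block and within 1 slide, gave the members the same differences. The 163 therefore overstate how stable the directions were. Leaving out each array in turn, Calb2 ranged from -0.75 to 0.23, Cck from -0.035 to 0.17, Gad1 from -0.037 to 0.18 and Pvalb from -0.052 to 0.41, each turning without wild-type 3, and Cck also without knockout 2 (-0.025). Npy ranged from -0.080 to 0.061 and turned without wild-type 2 (0.011) or knockout 1, Reln from -0.19 to 0.28 and turned without wild-type 2, and Sst from -0.0023 to 0.054 and turned without wild-type 1. With the slide as a fixed block, and within the slide that holds both genotypes, Cck and Reln changed to -0.17 and -0.077, and the members' median moved to -0.024. Median centring turned Npy to 0.13 and moved the members' median to 0.20, with the median over all genes at 0.13 in place of -0.01. Normexp correction turned Reln to -0.0017, quantile normalization Sst to -0.018 and the mean of a gene's probes Lhx6 to 0.11. The cause was not tested. Leaving out single arrays, the count of probes past the threshold ranged from 0 to 880 (672 higher, 208 lower), the latter without knockout 1, which leaves the 2 genotypes on separate slides, and 0 of the 13 member probes were among them. The members' median ranged from 0.0041 to 0.062 when single arrays were left out. The same-numbered arrays deviated from their group means with correlations of -0.04, -0.15 and -0.10, and differently numbered ones with -0.02 to 0.12. Deviations within a group add up to 0, so these values constrain one another. They cannot decide whether same-numbered samples were handled together. With the replicate number as a block, 0 probes passed, 3342 had an unadjusted p under 0.05 against 3861 without it, and the members' median stayed at 0.05. Calb2, Reln and the Lhx6 probe at position 569 lay at low signal over background, which limits their differences.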

Other observations

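Other neuropeptide genes of interneurons and their neighbours, beside Crh, were picked after their values were seen, and none passed the adjusted threshold. Cort, which encodes the somatostatin-like peptide cortistatin, read 1.12, 1.15 and 1.89 in wild type and 1.77, 1.49 and 1.39 in knockout, a difference of 0.16 ± 0.23 (SE, adjusted p = 0.798 by limma). Wild-type 3 was its highest array, as it was for Calb2, and without it the difference was 0.41 (unadjusted p = 0.0260 and adjusted p = 0.432 by limma). Pnoc, the nociceptin precursor, differed by -0.01 ± 0.10, and Tac2, which encodes neurokinin B, by 0.09 ± 0.09 (0.03 and 0.17 without wild-type 3). Tac1, the substance P precursor that striatal neurons also make, read 2.63 on wild-type 3 and 1.55 to 2.02 on the other 4 arrays with a value.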
